A study of Mus musculus with 8 samples.

Results

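The genes described here are 44 that encode lysosomal hydrolases, their cofactors, lysosomal membrane proteins and subunits of the vacuolar proton pump (V-ATPase), chosen by gene symbol as known lysosomal proteins. All 44 were found among the 41444 genes listed, each under its own symbol, and all 44 were among the 11851 genes tested. They fall into 12 proteases, 10 glycosidases, 5 sulfatases, 6 lipid hydrolases and soluble cofactors, 5 membrane proteins and 6 V-ATPase subunits. The study compared macrophages derived with M-CSF, a macrophage growth factor, from bone marrow of wild-type C57BL/6 mice. One group had received 6 nM SLIT2, a secreted ligand of ROBO receptors, for 16 hours (SLIT2, 4 libraries), and the other the vehicle control (vehicle, 4 libraries). The age and sex of the mice, and whether replicates came from separate animals or cultures, are not given in the labels, so p-values measure the spread between these libraries, which may be technical. Expression is given as rlog, a regularized logarithm to base 2 that corrects for library size and shrinks low counts towards the mean of the gene. Depth is unknown, since the table holds no counts.

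Lysosomes are acid compartments in which macrophages break down what they engulf. The V-ATPase pumps protons into them with energy from ATP, hydrolases that work at acid pH cleave proteins, glycans and lipids there, and heavily glycosylated membrane proteins such as LAMP proteins line the compartment. Many of these genes are known to carry a short E-box element near their start, which is bound by the MiT/TFE transcription factors (TFEB and its relatives) in mouse and human cells.

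Each group held a pair of replicate sets, numbers 1 and 2 and numbers 3 and 4. Xist, a noncoding RNA of X inactivation, ran between 7.47 and 7.65 in numbers 1 and 2 and between 12.69 and 12.79 in numbers 3 and 4. The Y-linked gene Ddx3y had the opposite pattern, at 10.75 to 10.83 in numbers 1 and 2 and 5.9 to 6.45 in numbers 3 and 4. The sets thus differ in sex-linked transcripts, and SLIT2 effects are also given within each set. The macrophage marker list was detected in full, with 10 of 10 genes tested. Yam1, which lies over a ribosomal RNA gene, ran between 17.51 and 19.15 in SLIT2 libraries and between 19.2 and 20.67 in vehicle libraries, without overlap, and its part in the results was not tested. In bulk RNA, fewer cells of a type and less RNA per cell cannot be told apart.

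SLIT2 left most of these genes near their vehicle level and moved a few in each direction. By limma with Benjamini-Hochberg adjustment over all genes tested, 5 of the 44 rose at an adjusted p under 0.05 (Ctsc, Ppt1, Lgmn, Ctsh and Neu1), which is 11.4% of them, where 6.76% of all genes tested rose. In the other direction 4 fell (Arsb, Atp6v1b2, Psap and Atp6v1a), which is 9.09%, where 6.58% of all genes tested fell. The remaining 35 did not pass. The median difference, SLIT2 minus vehicle, was 0.005 over the 44 genes and 0.00 over all genes tested, and the median size of a difference regardless of sign was 0.0938 over the 44 genes and 0.113 over all genes tested. At 14 of the 44 genes, 31.8%, the SLIT2 and vehicle libraries had no overlap, where 20.5% of all genes tested had none.

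**Figure D1:**
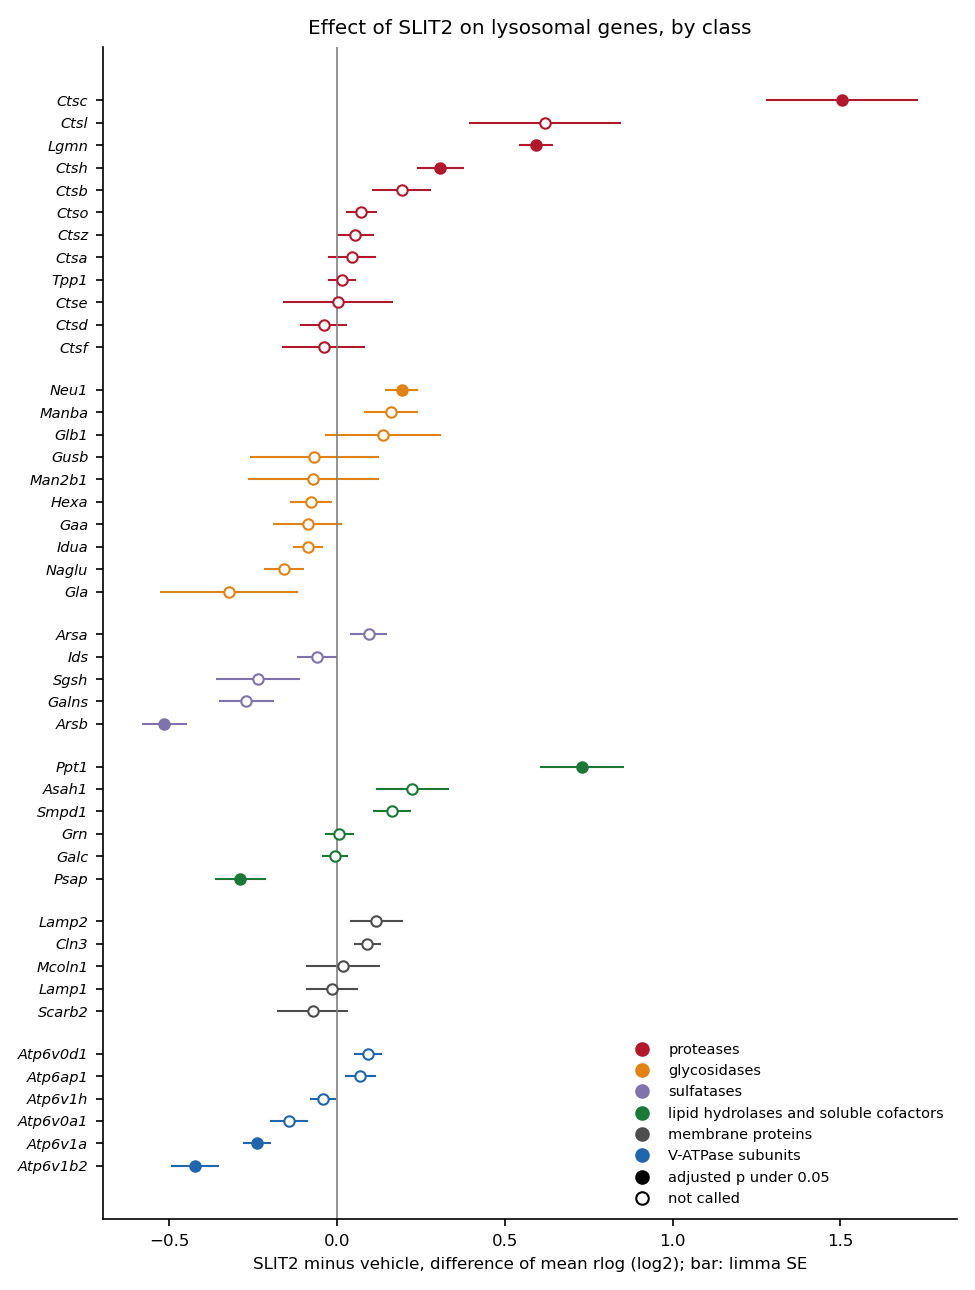
Difference of mean rlog (log2), SLIT2 minus vehicle, for each of the 44 lysosomal genes, grouped by class, with the limma standard error as the bar (4 libraries a group). Filled points had an adjusted p under 0.05: the called proteases lie to the right of 0 (Ctsc at 1.51) and the called V-ATPase subunits to the left (Atp6v1b2 at -0.42).

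With the replicate number as a block, 9 of the 44 genes passed as higher, where 16.6% of all genes tested did, and 9 as lower, where 16.4% did. The genes added by the block were Ctsl, Asah1, Smpd1 and Manba among the higher and Galns, Sgsh, Naglu, Atp6v0a1 and Gaa among the lower. With each pair of duplicates averaged to a single sample and the set as a block, a fit that leaves few degrees of freedom, 5.81% of all genes tested passed. Of the 44, Ctsc, Ppt1, Ctsl and Lgmn then passed as higher and Atp6v1b2 as lower.

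Of 12 protease genes, 3 rose (Ctsc, Lgmn and Ctsh) and none fell, and 10 had a positive difference. For this and each class below, the background is all 11851 genes tested. Of these, 6.76% rose and 6.58% fell, and 6035 had a positive and 5816 a negative difference. Ctsc encodes cathepsin C, a dipeptidyl peptidase that activates granule serine proteases (ENSMUSG00000030560, GRCm38 chromosome 7, 88278085 to 88310888, plus strand). Its rlog values were 15.02, 15.07, 14.47 and 14.46 in SLIT2 replicates 1 to 4, against 13.59, 13.61, 12.94 and 12.86 in vehicle replicates 1 to 4. Every SLIT2 library lay above every vehicle library, and in both groups replicates 1 and 2 were the higher ones. The means were 14.76 ± 0.336 and 13.25 ± 0.406 (SD, n = 4 each), a log2 difference of 1.51 (limma SE 0.227, adjusted p = 0.00365) or 2.84-fold. Within the sets it was 1.45 (replicates 1 and 2) and 1.56 (replicates 3 and 4).

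Lgmn encodes legumain, an asparaginyl endopeptidase that also processes cathepsins (ENSMUSG00000021190, chromosome 12, 102394084 to 102439813, minus strand). SLIT2 replicates 1 to 4 had 16.08, 16.11, 16.02 and 16.02, against 15.51, 15.52, 15.40 and 15.43 in vehicle replicates 1 to 4. These groups were tight and did not overlap, with means of 16.06 ± 0.045 and 15.46 ± 0.0592 (SD, n = 4 each). Its log2 difference of 0.59 (limma SE 0.0508) had the smallest adjusted p of the 44 genes, 0.000258. Ctsh encodes cathepsin H, an aminopeptidase (ENSMUSG00000032359, chromosome 9, 90054152 to 90076089, plus strand). Values of Ctsh were 13.39, 13.43, 13.21 and 13.20 in SLIT2 libraries, against 12.95, 13.05, 12.91 and 13.09 in vehicle libraries. Replicates 3 and 4 of the groups lay close to each other, and the log2 difference was 0.31 (limma SE 0.0698, adjusted p = 0.0238), at 0.41 in replicates 1 and 2 and 0.20 in replicates 3 and 4. Ctsh missed the threshold when SLIT2 replicate 1 or 2 was left out (adjusted p = 0.0658 and 0.0629), and likewise vehicle replicate 1 or 3 (0.0665 and 0.0652).

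Ctsl, the gene of the endopeptidase cathepsin L (ENSMUSG00000021477, chromosome 13, 64359337 to 64370890, minus strand), had a difference of 0.62 that did not pass by limma without a block (SE 0.226, adjusted p = 0.121). Values of 15.61, 15.59, 15.05 and 14.98 in SLIT2 replicates 1 to 4 stood against 15.01, 15.05, 14.31 and 14.38 in vehicle replicates 1 to 4. The groups overlap because SLIT2 replicates 3 and 4 sit at the level of vehicle replicates 1 and 2. Within the sets the difference was 0.57 and 0.67, and with the replicate number as a block the adjusted p was 0.000172. An antisense gene, Gm47123, shares 1742 exonic bases with Ctsl, and whether the counting used strand is not stated in the labels or the table. A processed pseudogene on the same strand, Gm49230, shares 395 exonic bases with Ctsl. The part of these overlaps in the Ctsl values was not tested.

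The other proteases differed little. Ctsb, a cysteine cathepsin, had a difference of 0.19 (limma adjusted p = 0.213, and 0.0517 with the block), with values of 18.96, 18.96, 19.11 and 19.13 in SLIT2 libraries, against 18.76, 18.77, 18.89 and 18.97 in vehicle libraries. After quantile normalization its difference was 0.64 (adjusted p = 0.0354). It also passed with the replicate set as a block (0.0132) and in replicates 1 and 2 alone (0.00554). Ctsb overlaps the sterol synthesis gene Fdft1, which rose, by 774 exonic bases on the opposite strand. Fdft1 was far lower than Ctsb, at a mean rlog of 9.795 in SLIT2 and 9.0975 in vehicle libraries. Its part in the Ctsb values was not tested. The carboxypeptidase genes Ctsa and Ctsz had differences of 0.05 and 0.06, the cysteine cathepsin genes Ctso and Ctsf 0.07 and -0.04, and Tpp1, a tripeptidyl peptidase, 0.02. Ctsd and Ctse encode aspartic proteases, and their differences were -0.04 and 0.00. Ctsd stayed between 17.9 and 18.05 in SLIT2 libraries and between 17.89 and 18.06 in vehicle libraries. A protein-coding gene on the same strand, Gm49369, shares 808 of the 2351 exonic bases of Ctsd.

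**Figure D2:**
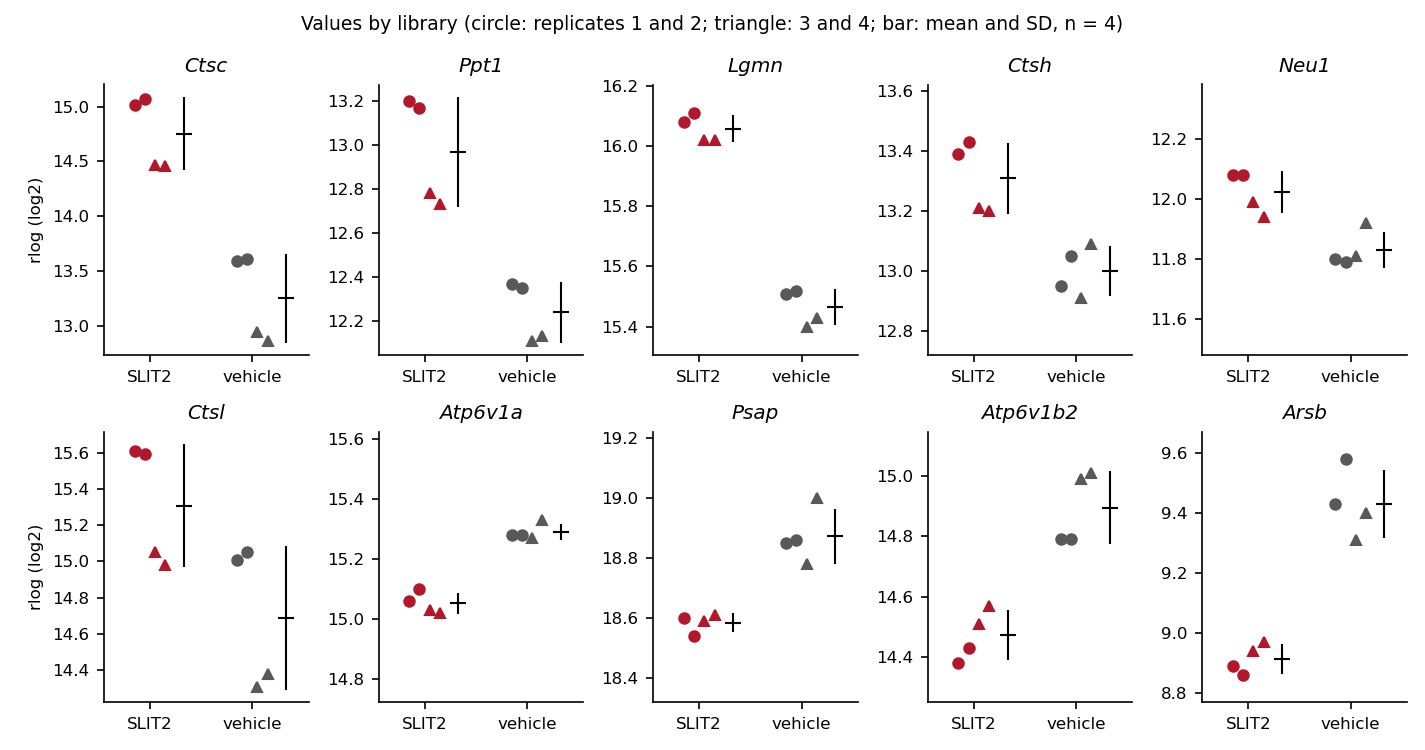
rlog values (log2) in each library for the 9 genes past the limma threshold and for Ctsl, SLIT2 on the left and vehicle on the right of each panel, with circles for replicates 1 and 2, triangles for replicates 3 and 4, and the mean and SD (n = 4) beside them. Panels have their own ranges: the groups do not overlap for the 9 called genes, while SLIT2 triangles of Ctsl reach down to 14.98, below the vehicle circles at 15.01 and 15.05.

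Glycosidases differed in both directions by small amounts, and 1 of 10 rose. Neu1 encodes a sialidase that works in a complex with cathepsin A (ENSMUSG00000007038, chromosome 17, 34931253 to 34935953, plus strand). Neu1 had 12.08, 12.08, 11.99 and 11.94 in SLIT2 replicates 1 to 4, against 11.80, 11.79, 11.81 and 11.92 in vehicle replicates 1 to 4. The lowest SLIT2 value was only just above the highest vehicle value, both from replicate 4. Its log2 difference of 0.19 (limma SE 0.0502, adjusted p = 0.0398) came to 0.28 within replicates 1 and 2 but 0.10 within replicates 3 and 4. Neu1 missed the threshold when SLIT2 replicate 1, 2 or 3 was left out (adjusted p = 0.101, 0.108 and 0.0722), and likewise vehicle replicate 1, 2 or 3 (0.0995, 0.103 and 0.0978). It was also lost with no filter on low values (0.0794), with no variance trend (0.0599) and after quantile normalization (0.0928).

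None of the other 9 glycosidase genes passed, and 7 of the 10 had a negative difference. The beta-mannosidase gene Manba had a difference of 0.16 (limma adjusted p = 0.257, and 0.0163 with the block) and the beta-galactosidase gene Glb1 one of 0.14 (0.692, and 0.0541 with the block). Naglu, which removes N-acetylglucosamine from heparan sulfate, differed by -0.16 (adjusted p = 0.134, and 0.0415 with the block), with no overlap between the groups. Gaa, the acid glucosidase that degrades glycogen, differed by -0.09 (0.673, and 0.0458 with the block). Differences for the alpha-mannosidase gene Man2b1, the beta-glucuronidase gene Gusb, the hexosaminidase subunit gene Hexa and the iduronidase gene Idua were -0.07, -0.07, -0.08 and -0.09. Gla, the alpha-galactosidase gene and a low one, differed by -0.32 (adjusted p = 0.382), where vehicle replicate 2 alone was at 6.64 and the other 3 vehicle libraries at 5.69 to 6.01, against 5.51 to 6.02 in SLIT2 libraries.

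Among the sulfatases, which remove sulfate from glycosaminoglycans or lipids, 1 of 5 fell (Arsb) and none rose, and 4 of the 5 differences were negative. Arsb encodes arylsulfatase B, which acts on dermatan and chondroitin sulfate (ENSMUSG00000042082, chromosome 13, 93771630 to 93943016, plus strand). Its values were 8.89, 8.86, 8.94 and 8.97 in SLIT2 replicates 1 to 4, against 9.43, 9.58, 9.31 and 9.40 in vehicle replicates 1 to 4. Each SLIT2 library was below each vehicle library, and Arsb fell by 0.52 on the log2 scale (limma SE 0.0668, adjusted p = 0.00175). Arsb fell by 0.63 within replicates 1 and 2 and by 0.40 within replicates 3 and 4, and the adjusted p was 0.0685 with averaged duplicates. Long noncoding genes on the opposite strand, Gm26527 and Gm47210, share 1948 and 463 exonic bases with Arsb.

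Galns, which acts on keratan and chondroitin sulfate, had values of 10.26, 10.22, 10.35 and 10.41 in SLIT2 libraries, against 10.45, 10.50, 10.58 and 10.79 in vehicle libraries. The groups did not overlap, and the difference of -0.27 had a limma adjusted p of 0.0672, and of 0.0038 with the block. Sgsh, the heparan sulfamidase gene, differed by -0.23 (adjusted p = 0.283, and 0.016 with the block), at -0.20 in replicates 1 and 2 and -0.27 in replicates 3 and 4. Differences of Ids, the iduronate sulfatase gene, and Arsa, whose product acts on the lipid sulfatide, were -0.06 and 0.10 (adjusted p = 0.608 and 0.329).

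Lipid hydrolases and soluble cofactors split, with 1 of 6 higher and 1 lower. Ppt1 encodes palmitoyl-protein thioesterase, which removes fatty acids from proteins (ENSMUSG00000028657, chromosome 4, 122836242 to 122859175, plus strand). Ppt1 was at 13.20, 13.17, 12.78 and 12.73 in SLIT2 replicates 1 to 4, against 12.37, 12.35, 12.11 and 12.13 in vehicle replicates 1 to 4. No values overlapped, and replicates 1 and 2 again stood highest in each group. The log2 difference was 0.73 or 1.66-fold (limma SE 0.126, adjusted p = 0.0068), at 0.82 in replicates 1 and 2 and 0.64 in replicates 3 and 4. When the SLIT2 effects of both sets were compared by a limma interaction term, with the spread taken from the duplicates, Ppt1 was the 1 gene of the 44 past the threshold (adjusted p = 0.0444), where 4.4% of all genes tested did. That count was 4 without vehicle replicate 3 and 0 without any other single library.

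Psap encodes prosaposin, the precursor of saposins that present sphingolipids to hydrolases (ENSMUSG00000004207, chromosome 10, 60277627 to 60302597, plus strand). SLIT2 libraries had 18.60, 18.54, 18.59 and 18.61, against 18.85, 18.86, 18.78 and 19.00 in vehicle libraries. The SLIT2 values were the tighter group and all lay below the vehicle values, and Psap fell by 0.29 on the log2 scale (limma SE 0.0761, adjusted p = 0.0421). This call was lost when any of the 8 libraries was left out, with adjusted p-values of 0.09, 0.118, 0.102 and 0.0833 without SLIT2 replicates 1, 2, 3 and 4, and of 0.0879, 0.0925, 0.0581 and 0.0787 without vehicle replicates 1, 2, 3 and 4. After quantile normalization the difference of Psap was -0.11 (adjusted p = 0.544).

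For Smpd1 and Asah1, positive differences passed with the block and not without it. Smpd1, acid sphingomyelinase, had 10.22, 10.16, 10.04 and 10.08 in SLIT2 libraries, against 9.97, 10.00, 9.87 and 10.00 in vehicle libraries, a difference of 0.17 (limma adjusted p = 0.101, and 0.0216 with the block). Asah1, acid ceramidase, differed by 0.23 (adjusted p = 0.234, and 0.00391 with the block), at 0.27 in replicates 1 and 2 and 0.18 in replicates 3 and 4. Both the galactosylceramidase gene Galc and the progranulin gene Grn had differences of -0.01 and 0.01. Grn varied least of the 44, between 16.12 and 16.14 in SLIT2 libraries and between 16.10 and 16.14 in vehicle libraries.

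Lysosomal membrane protein genes showed no call in either direction, with or without the replicate block, and all 5 differences lay between -0.07 and 0.12. With the replicate set as a block, Lamp2 and Cln3 passed as higher (adjusted p = 0.0198 and 0.0343) and Scarb2 as lower (0.0206). In replicates 1 and 2 alone, Lamp2 (0.00215) and Scarb2 (0.041) passed. No share of all genes tested is given for those fits. Cln3, whose product is lost in a neuronal storage disease, had the smallest p of the class, with 11.67, 11.66, 11.60 and 11.67 in SLIT2 libraries, against 11.59, 11.58, 11.58 and 11.49 in vehicle libraries. The groups were separate by a narrow margin, and the difference of 0.09 had a limma SE of 0.04 and an adjusted p of 0.198. Lamp2 differed by 0.12 (adjusted p = 0.413), Lamp1 by -0.01 (0.935), Mcoln1, a lysosomal calcium channel gene, by 0.02 (0.946) and Scarb2, a receptor that carries glucocerebrosidase to lysosomes, by -0.07 (0.742).

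Proton pump subunits that changed were lower, 2 of 6, and none was higher. Both belong to the cytosolic V1 sector that splits ATP. Atp6v1b2 encodes its B subunit (ENSMUSG00000006273, chromosome 8, 69088646 to 69113711, plus strand). It had 14.38, 14.43, 14.51 and 14.57 in SLIT2 replicates 1 to 4, against 14.79, 14.79, 14.99 and 15.01 in vehicle replicates 1 to 4. All SLIT2 values lay below all vehicle values, with replicates 3 and 4 the higher ones in each group, the reverse of Ctsc and Ppt1. Atp6v1b2 fell by 0.42 on the log2 scale (limma SE 0.0721, adjusted p = 0.00653), by 0.39 in replicates 1 and 2 and by 0.46 in replicates 3 and 4.

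Atp6v1a encodes the catalytic A subunit (ENSMUSG00000052459, chromosome 16, 44085402 to 44139705, minus strand). Values were 15.06, 15.10, 15.03 and 15.02 in SLIT2 libraries, against 15.28, 15.28, 15.27 and 15.33 in vehicle libraries. The separation was wide for the spread within groups, and Atp6v1a fell by 0.24 on the log2 scale (limma SE 0.0415, adjusted p = 0.00735), with an adjusted p of 0.104 with averaged duplicates. Atp6v1h, the regulatory H subunit of the same sector, differed by -0.04 (adjusted p = 0.567). In the membrane sector, Atp6v0a1, the a subunit, differed by -0.14 (adjusted p = 0.151, and 0.0332 with the block) and Atp6v0d1, the d subunit, by 0.09 (0.204). Atp6ap1, an accessory subunit, differed by 0.07 (0.396).

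The 44 genes also differed between the replicate sets, irrespective of SLIT2, and the part of the sex-linked difference between the sets in this was not tested. Over both treatments, 33 of the 44 (75%) had the lower mean in replicates 3 and 4, with a median of -0.09 for replicates 3 and 4 minus 1 and 2, against 51.7% and -0.01 for all genes tested. Among glycosidases 9 of 10 were lower there, with a median of -0.22. The widest such gaps were -0.64 for Ctsc, -0.64 for Ctsl, -0.54 for Man2b1, -0.53 for Gusb and -0.47 for Glb1. In the other direction, Mcoln1 was higher in replicates 3 and 4 by 0.29, Galns by 0.175, Atp6v1b2 by 0.1725 and Ctsb by 0.1625. Of the glycosidase genes with wide gaps, Man2b1 and Gusb had SLIT2 differences of -0.01 and -0.07 in replicates 1 and 2 and of -0.12 and -0.07 in replicates 3 and 4.

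**Figure D3:**
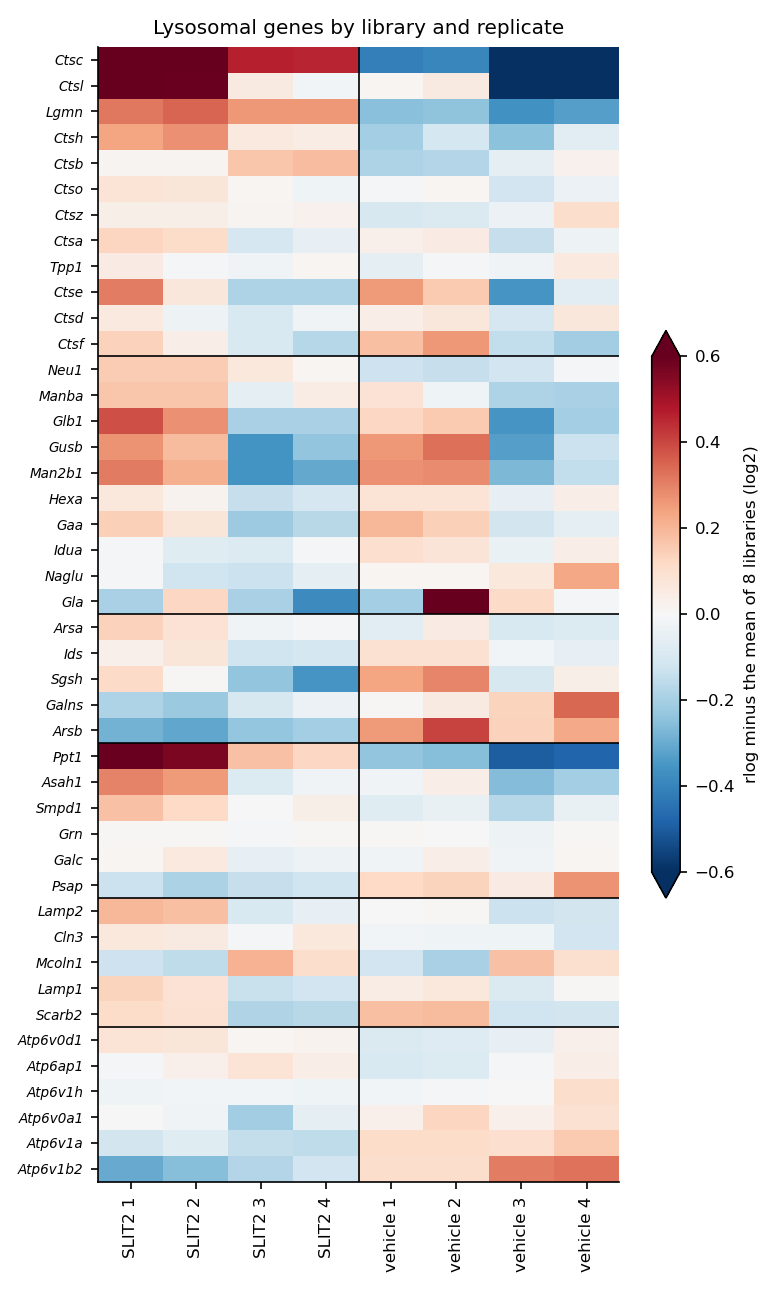
rlog of each gene minus its mean over the 8 libraries (log2, red higher and blue lower, with colours saturated past 0.6), rows ordered by class and SLIT2 effect, SLIT2 libraries left of the black line and vehicle libraries right of it. Ctsc, Lgmn and Ppt1 are red in all SLIT2 libraries and blue in all vehicle libraries, while Man2b1, Gusb and Glb1 split between replicates 1 and 2 and replicates 3 and 4 in both groups.

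**Figure D4:**
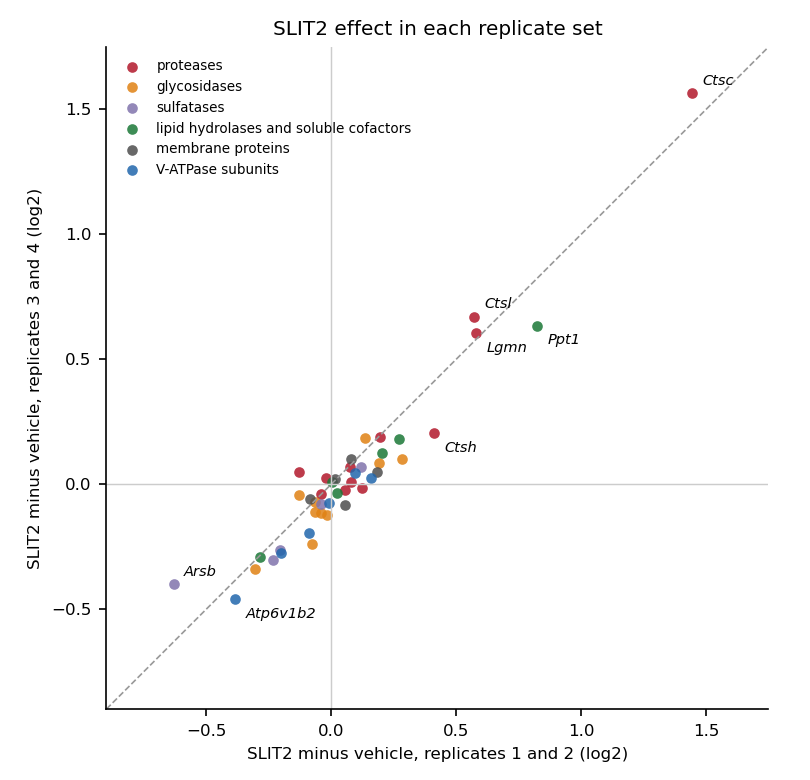
SLIT2 minus vehicle (log2) in replicates 1 and 2 on the x axis and in replicates 3 and 4 on the y axis for the 44 genes, coloured by class, with the dashed line marking equal effects. Ctsc (1.45 and 1.56) stands apart at the upper right, and Ppt1 (0.82 and 0.64) lies below the line.

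All 9 called genes had the same direction in each set, as a test over all libraries favours. Per exonic length, these are abundant transcripts. With log2 of the exonic length in kilobases subtracted from the mean rlog, 40 of the 44 lay above 7.38, the median of the tested genes with a length. On that scale Psap was highest at 17.27, followed by Ctsd at 16.76, Ctsb at 16.35 and Lamp1 at 14.97. Among the called genes, levels on that scale were 14.55 for Lgmn, 12.58 for Atp6v1a, 12.28 for Atp6v1b2, 11.46 for Ctsc, 10.98 for Ctsh, 10.73 for Ppt1, 10.03 for Neu1 and 6.58 for Arsb. Exonic length is the union over all annotated transcripts, so the order is approximate. Ctse and Gla were lowest, at 3.49 and 4.19. On a linear scale without a correction for length, the 44 genes together took between 5.76% and 6.04% of the summed values of all genes in SLIT2 libraries and between 5.54% and 6.08% in vehicle libraries.

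Promoter windows of 300 bases, most of them upstream of a transcript start (RefSeq, GRCm38.p6), were given for 37 of the 44 genes, 4 of them with more than 1 window. The E-box CACGTG, which reads alike on both strands, occurred in a window of 16 of the 37 genes (43.2%), where 8.09% of the 27025 genes with a window had it. Its longer form TCACGTGA, which contains the E-box, occurred in 7 of the 37 (18.9%), where 1.12% of all genes with a window had it. Base composition was not matched between the members and all genes, and a match is not evidence of binding. Of the 16 genes with the E-box, 1 rose (Lgmn) and 1 fell (Atp6v1a), with a median difference of 0.00. Of the 21 with a window and no E-box, 3 rose (Ctsc, Ppt1 and Neu1) and 2 fell (Arsb and Psap), with a median difference of 0.01. Asah1, Atp6v1b2, Atp6v1h, Ctsb, Ctse, Ctsh and Galns had no window.

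The windows of the 3 genes with a window that rose most, and of Atp6v1a, the gene that fell with the longer form in its window (chosen after the matches were seen), are printed 5′ to 3′ in lower case with the E-box or its longer form in capitals. Ctsc (chr7:88277835-88278134, plus strand) and Ppt1 (chr4:122835977-122836276, plus strand) hold none. The window of Lgmn shown (chr12:102439043-102439342, minus strand) has its E-box at position -49 from a transcript start (upstream is negative), and a second window of Lgmn further upstream holds none. In Atp6v1a (chr16:44139210-44139509, minus strand) the E-box begins at position -131. The windows shown for Lgmn and Atp6v1a lie wholly inside the annotated genes, whose 5′ ends are at 102439813 and 44139705. Their E-boxes are thus upstream of a transcript start but not of the whole gene.
Ctsc: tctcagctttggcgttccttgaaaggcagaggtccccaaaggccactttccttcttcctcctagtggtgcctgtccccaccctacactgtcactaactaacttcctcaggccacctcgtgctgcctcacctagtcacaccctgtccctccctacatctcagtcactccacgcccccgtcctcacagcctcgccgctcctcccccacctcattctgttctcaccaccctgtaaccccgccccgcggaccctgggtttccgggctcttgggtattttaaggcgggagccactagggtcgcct
Ppt1: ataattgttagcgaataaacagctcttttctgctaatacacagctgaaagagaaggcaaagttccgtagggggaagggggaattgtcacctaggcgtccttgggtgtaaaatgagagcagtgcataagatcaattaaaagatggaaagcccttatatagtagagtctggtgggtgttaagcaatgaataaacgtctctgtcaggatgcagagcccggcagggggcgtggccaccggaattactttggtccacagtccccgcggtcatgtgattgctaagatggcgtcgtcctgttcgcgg
Lgmn: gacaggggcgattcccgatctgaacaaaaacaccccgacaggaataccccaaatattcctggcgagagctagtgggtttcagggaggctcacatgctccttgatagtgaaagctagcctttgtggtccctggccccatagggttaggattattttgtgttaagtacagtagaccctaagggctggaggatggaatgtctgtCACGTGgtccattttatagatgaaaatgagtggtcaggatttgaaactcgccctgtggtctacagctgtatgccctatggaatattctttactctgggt
Atp6v1a: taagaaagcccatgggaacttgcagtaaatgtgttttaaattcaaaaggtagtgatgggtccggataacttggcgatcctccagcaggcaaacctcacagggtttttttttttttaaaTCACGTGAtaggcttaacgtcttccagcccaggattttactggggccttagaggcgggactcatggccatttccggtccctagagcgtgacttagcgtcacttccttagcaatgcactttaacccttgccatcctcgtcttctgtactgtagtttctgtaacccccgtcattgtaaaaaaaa

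Of the MiT/TFE factors known to bind that element, Tfec rose by 1.32 (limma SE 0.0524, adjusted p = 8.59e-06), while Tfeb fell by 0.51 (adjusted p = 0.031) and Mitf by 0.37 (adjusted p = 0.00979). Tfe3 did not pass, with a difference of -0.04 (adjusted p = 0.799). Mitf differed by -0.51 in replicates 1 and 2 and by -0.23 in replicates 3 and 4. The limma adjusted p for that difference between the sets was 0.0121. With averaged duplicates Mitf did not pass (limma adjusted p = 0.111), while Tfec and Tfeb did (0.0262 and 0.0472).

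Other genes of the lysosome also changed in part. For the lists below, the shares over all genes tested were again 6.76% higher and 6.58% lower. Among 16 tested genes of other V-ATPase subunits and assembly factors, 1 fell and none rose. It was Atp6v0d2, a d subunit abundant in osteoclasts, which fell by 0.76 (limma SE 0.205, adjusted p = 0.0446). With the block, Atp6v1c1 also passed as lower, at -0.33, and Atp6v0c, Atp6v1g1 and Ccdc115 as higher, at 0.23, 0.18 and 0.26. With averaged duplicates these 4 did not pass (adjusted p = 0.0925, 0.126, 0.163 and 0.139).

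In the list of other lysosomal enzymes, 4 of 34 rose and 2 fell, with a median difference of -0.01. Naaa, an acid amidase of fatty acid ethanolamides, rose by 1.47, with 11.61 ± 0.161 in SLIT2 libraries and 10.14 ± 0.223 in vehicle libraries (SD, n = 4; limma adjusted p = 0.000237). Lipa, the lysosomal acid lipase that frees cholesterol from its esters, fell by 0.79 (adjusted p = 0.0011) and Hyal1, a hyaluronidase, by 0.64 (adjusted p = 0.0131). SLIT2 lowered Lipa more in replicates 1 and 2 (-1.02) than in replicates 3 and 4 (-0.57), with a limma adjusted p of 0.0127 for the difference. Lipa did not pass with averaged duplicates (limma adjusted p = 0.0761), while Naaa and Hyal1 did (0.0262 and 0.036). Ctss, the cysteine cathepsin of antigen presentation, differed by 0.24 and did not pass (adjusted p = 0.0581). Its adjusted p was 0.0106 under the replicate block, but 0.167 once duplicates were averaged.

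In the list of other membrane proteins and transporters, 5 of 31 rose and 4 fell, with a median difference of -0.04. Tpcn1, a calcium channel gene of endolysosomes, fell by 0.60 (limma adjusted p = 0.00225) and Mfsd12, a cysteine transporter gene, by 0.53 (0.00705), while Pqlc2, an exporter of cationic amino acids, rose by 0.42 (0.00104). Pqlc2 did not pass with averaged duplicates (limma adjusted p = 0.0528), while Tpcn1 and Mfsd12 did (0.0469 and 0.0332). In the list named mannose 6-phosphate sorting, a route that delivers hydrolases to lysosomes, 3 of 14 rose and 1 fell. The mannose 6-phosphate receptor genes M6pr and Igf2r did not pass, with differences of 0.15 and -0.10 (limma adjusted p = 0.26 and 0.802). Ap1b1, a subunit of the clathrin adaptor at the Golgi, rose by 0.99 (limma adjusted p = 0.0059) and Gga3, another adaptor, by 0.32 (0.00957), whereas Sort1, the sorting receptor sortilin, fell by 0.68 (0.00916). Gga3 did not pass with averaged duplicates (limma adjusted p = 0.0582), while Ap1b1 and Sort1 did (0.0262 and 0.0462). Of 5 tested inhibitors of lysosomal proteases, 1 rose and 1 fell. Cst7, cystatin F, which inhibits cathepsin C, rose by 0.58 (adjusted p = 0.0119), and Serpinb6a fell by 0.38 (0.00129). Neither Cst7 nor Serpinb6a passed with averaged duplicates (limma adjusted p = 0.0679 and 0.0716).

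**Figure D5:**
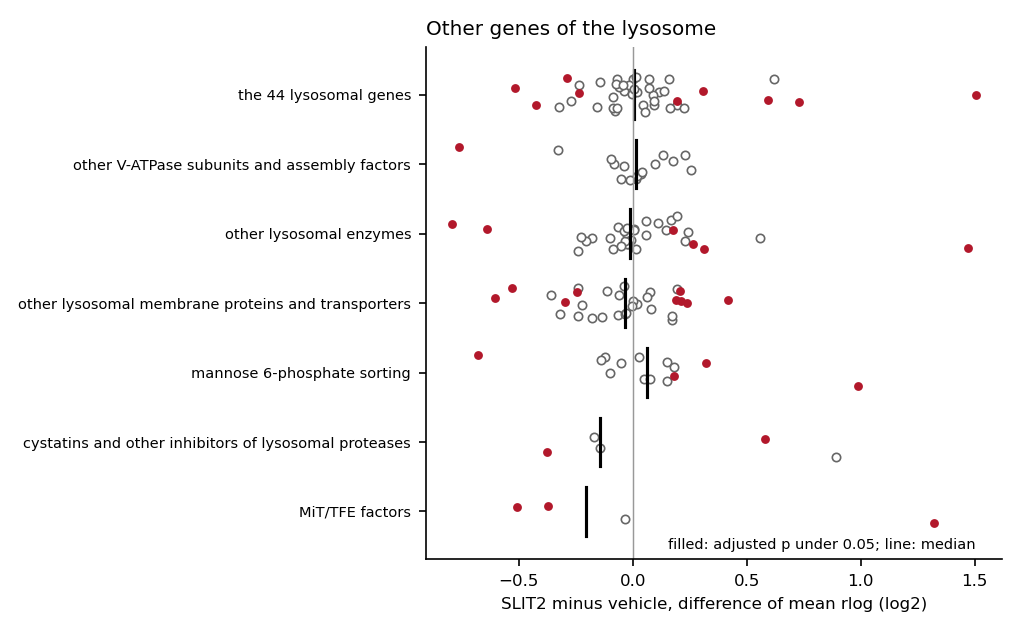
SLIT2 minus vehicle (difference of mean rlog, log2) for each tested gene of the 44 and of the other lysosomal lists, with filled points for an adjusted p under 0.05 and a line at each list's median; the vertical spread of points is only for legibility. List medians run between -0.20 (MiT/TFE factors) and 0.06 (mannose 6-phosphate sorting), and called genes lie on both sides of 0.

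Markers of other cell types moved with SLIT2 in part, and their part in the results on the 44 genes was not tested. For osteoclasts, which also express cathepsins and the proton pump, 3 of 7 tested markers of 10 listed fell (Dcstamp, Itgb3 and Atp6v0d2) and none rose. The summed level of the 10 was 0.0249% to 0.0365% of all values in SLIT2 libraries and 0.0394% to 0.0566% in vehicle libraries. That sum is mostly the V-ATPase gene Atp6v0d2, at a mean rlog of 12.76 in SLIT2 and 13.52 in vehicle libraries. Nfatc1, Mmp9, Acp5 and Ctsk differed by -0.12, -0.43, -0.05 and -0.02 and did not pass. Calcr was listed at 0, and Ocstamp and Oscar lay under the filter. Of the 12 neutrophil markers 2 were tested and Csf3r rose, with a summed level of 0.0119% to 0.0148% in SLIT2 libraries and 0.00772% to 0.0085% in vehicle libraries. The defining genes Ly6g, Ctsg, Prtn3 and Retnlg were listed at 0. In dendritic cell markers 2 of 8 were tested and Kmo rose. The summed level was 0.000758% to 0.00148% in SLIT2 libraries and 0.000305% to 0.000472% in vehicle libraries. Kmo was the highest of the 8, at a mean rlog of 8.13 in SLIT2 and 6.22 in vehicle libraries. Xcr1, the other tested gene, was at 4.50 and 4.66 and did not pass (limma adjusted p = 0.62). Lymphocyte markers had 2 of 8 tested and Cd4 lower, at 0.00461% to 0.00608% in SLIT2 libraries and 0.00665% to 0.00749% in vehicle libraries. Ranges of the 2 groups overlapped for macrophage (2 of 10 higher, 1 lower) and mast cell (0 called of 1 tested) markers. They also overlapped for stromal and endothelial (1 of 6 higher) and erythroid and megakaryocytic (0 called of 2 tested) markers. With the replicate block, the megakaryocytic markers Pf4 and Ppbp passed as higher, at 1.36 and 1.145 (limma adjusted p = 0.000715 and 0.0134). The mast cell marker Kit then passed as lower, at -0.505 (0.0382). With averaged duplicates, Pf4, Ppbp and Kit did not pass (0.0512, 0.133 and 0.17).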

How the data were processed

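RNA-seq libraries of 4 SLIT2 and 4 vehicle macrophage samples were analysed from 1 table of log2-scale regularized-log (rlog) values, deposited by the authors to 2 decimals, with no counts, so depth and counting error are unknown. Per the submitters' processing notes, the tools were DESeq2, Salmon, STAR, Picard 2.23.8, SAMtools 1.7 and FastQC 0.11.9, with mm10 and GRCm38, with no roles or settings given. Of 41444 genes, 20992 held a single value in all libraries, and 11851 with a mean rlog of at least 4 entered the test, made in R 4.3.3 by limma 3.58.1 (lmFit, eBayes with a mean-variance trend, two-sided, Benjamini-Hochberg over all genes tested, threshold 0.05). Steps were tested on simulated data.

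Deviations from the group means correlated over genes at 0.637, 0.671, 0.753 and 0.587 for the 4 same-numbered pairs. Pairs with the other number of the same set correlated at 0.7222, 0.6095, 0.601 and 0.6793. The values thus match the samples of the groups by set and do not show a pairing by number. The labels do not say what a number marks. A listed 0 does not show absence. Members, classes, lists, tests and alternatives were chosen with earlier results of these data known. Every member was named. From other lists, up to 3 called genes were named by the size of the difference. Genes named outside that rule were picked with their values in view. They were Atp6v0c, Atp6v1c1, Atp6v1g1, Ccdc115, Ctss, Yam1, Xist, Ddx3y, M6pr, Igf2r, the overlapping genes and the markers that were not called. Gene positions and exon overlaps came from GENCODE M21 (GRCm38) and promoter windows from RefSeq (GRCm38.p6). Figures were drawn with matplotlib 3.10.9. Alternatives were a replicate block, a block on the replicate set, averaged duplicates, each set alone, other filters, no variance trend, quantile normalization, array weights and leaving out each library.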

Additional observations from a re-analysis of the deposited data

Results flagged for a closer look

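In 88 groups of 4 libraries, 6 had a library far from the other 3 by Dixon's gap ratio at its 95% critical value, where chance flags about 1 group in 20. They were SLIT2 replicate 3 for Cln3 (gap over range 0.857) and Grn (1.00), and vehicle replicate 4 for Neu1 (0.846), Cln3 (0.9), Atp6v1a (0.833) and Atp6v1h (0.833). For Grn the gap is between 16.12 and 16.14, at the second decimal of the table. Without vehicle replicate 4, Neu1 had a difference of 0.22 (limma adjusted p = 0.0329) and Atp6v1a one of -0.22 (0.0218).

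The SLIT2 effect on Ppt1 differed between the replicate sets, by -0.19 for replicates 3 and 4 minus replicates 1 and 2, in a limma interaction test (adjusted p = 0.0444).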

How the results depend on the processing

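Of the 9 called genes, 4 (Ctsc, Lgmn, Ppt1 and Atp6v1b2) kept their call under each of the 18 alternatives, and none of the 9 changed sign under any of them. Genes called higher, 5, numbered 9 with the replicate block, 14 with the set as a block, 15 in replicates 1 and 2 alone, and 3 to 5 with 1 library left out (3 without SLIT2 replicate 1 or 2 or vehicle replicate 1 or 3). Genes called lower, 4, numbered 9 with the replicate block, 10 with the set as a block, 8 in replicates 1 and 2 alone, 3 with any library left out and 1 with averaged duplicates, which uses fewer samples. The block ended no call. The share of all genes tested that passed is given above only for the main fit, the replicate block and averaged duplicates. Counts under the other alternatives therefore have no background to be read against. With averaged duplicates, Ctsh (adjusted p = 0.105), Neu1 (0.171), Arsb (0.0685), Psap (0.2) and Atp6v1a (0.104) missed the threshold. In replicates 3 and 4 alone, Ctsh (0.0674), Neu1 (0.182) and Psap (0.112) did.

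The count of genes whose SLIT2 effect differed between the sets, 1, was 0 with no filter, 0 with no trend, 3 after quantile normalization, and 0 to 4 with 1 library left out, all chosen after seeing the data. The cause was not tested.

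Signs changed for 11 genes that were not called. After quantile normalization the differences were 0.179 for Ctsd, 0.000313 for Lamp1, -0.00922 for Mcoln1 and -0.00406 for Grn. In replicates 1 and 2 alone they were -0.02 for Ctse, 0.055 for Lamp1 and 0.025 for Galc, and in replicates 3 and 4 alone 0.05 for Ctsf, -0.015 for Ctsz and -0.025 for Tpp1. With array weights they were -0.0264 for Ctse and 0.000737 for Galc. With 1 library left out they ranged from -0.115 to 0.0883 for Ctse, -0.117 to 0.04 for Ctsf, -0.0625 to 0.0275 for Lamp1, -0.0258 to 0.0108 for Galc, -0.188 to 0.0408 for Gusb, -0.186 to 0.0375 for Man2b1, -0.0025 to 0.0375 for Tpp1, -0.0483 to 0.0792 for Mcoln1 and -0.00167 to 0.0125 for Grn.

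Depth is unknown, and rlog shrinks differences of low genes such as Ctse and Gla. The labels do not say whether the 2 libraries of a set within a group had separate sources.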
